A study of Mus musculus with 79 samples.

Results

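The lysosomal genes described here are 41 hydrolases, their lumenal helpers and membrane proteins of the lysosome, taken as a list of named genes. The list comprised 13 proteases (the cathepsins and legumain), 12 glycan hydrolases, 9 lipid and lumenal proteins and 7 membrane proteins. Of these, 39 had at least 1 probe named by the platform annotation, with 59 probes in all among the 25697 probes of the array. Gla and Npc1 had no named probe and were not analysed here. Probes with a detection p under 0.05 on 8 or more arrays of a tissue were used there, which left 54 probes of 37 genes in each tissue. The hippocampal set lacked Ctse and Ctso and the cortical set lacked Ctsl and Ctso. Each gene is given by its brightest probe, as log2 intensity after background correction and quantile normalisation. Levels of different genes cannot be compared on this scale, because each probe binds with its own strength.

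Female mice gave total RNA from the frontal cortex and the left hippocampus. APP/PS1 mice carry mutant human transgenes for the amyloid precursor protein and presenilin 1 under a Thy1 promoter cassette, which drives expression in neurons, and develop amyloid plaques. They were given an antisense oligonucleotide (ASO) against Cd33, a sialic acid-binding receptor of microglia, or a control ASO without a target, or phosphate-buffered saline (PBS), and wild-type (WT) littermates were given PBS. From 18 weeks of age an osmotic pump infused the ventricle for 14 days, with 75 µg of ASO in 6 µL each day, and the pump and cannula were implanted in every group, WT included. Tissue was taken at about 20.5 weeks, 17 days after surgery for most mice and after another interval for 4: an APP/PS1 PBS animal at 14 days and 3 animals of the CD33 ASO group, a pair at 13 days and the other at 16. The hippocampus gave 11 WT PBS, 8 APP/PS1 PBS, 11 APP/PS1 control ASO and 9 APP/PS1 CD33 ASO arrays. The cortex gave 11, 8, 11 and 10 arrays, and the arrays of a tissue came from different animals.

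Lysosomes degrade proteins, glycans and lipids that reach them by endocytosis, phagocytosis and autophagy. Their hydrolases work at acid pH in the lumen, while heavily glycosylated membrane proteins line the organelle and carry metabolites, ions and cholesterol across it. In the brain, microglia and other phagocytes hold many lysosomes, whereas neurons and other glia use the same enzymes for the turnover of their own membranes, and inherited loss of single hydrolases causes storage disorders that often affect the brain.

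Between 13105 and 14446 probes were detected on an array. Cd33 checked the ASO labels: it lay between 4.45 and 5.15 on the hippocampal CD33 ASO arrays and between 6.15 and 7.16 on the control ASO arrays, and between 4.49 and 6.39 against 6.48 and 7.25 in the cortex, so the ASO groups did not overlap in either tissue. Thy1 checked the genotype labels: it was at 14.51 or more on every APP/PS1 PBS array and at 14.14 or less on every WT array. On 7 arrays from 4 animals labelled APP/PS1 it lay between 13.81 and 14.01, below the highest WT array of the same tissue. These were 2 cortical and 2 hippocampal arrays labelled control ASO, and 2 cortical arrays and 1 hippocampal array labelled CD33 ASO, so the comparisons that use ASO groups are also given without these animals. Of 4 measured hippocampal genes 3 were higher in WT hippocampus, Prox1, C1ql2 and Fibcd1, and all 3 measured cortical genes, Rorb, Cux2 and Tbr1, were higher in WT cortex. Wfs1 did not separate the tissues (-0.09, adjusted p = 0.593, limma).

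In the frontal cortex, 17 of the 37 measured lysosomal genes were higher in APP/PS1 PBS mice than in WT PBS mice and 0 were lower (limma, Benjamini-Hochberg adjusted p under 0.05 over all 14581 probes). Over all probes tested, 4.18% were called in this comparison and 3.66% were called higher, against 45.9% of the lysosomal genes. The list was chosen with earlier results of these data known. Each of its genes is given by its brightest probe, while the background counts every probe. The median difference of the 37 genes was 0.23 and 31 were above 0, while the median of all probes was -0.03 and 41.3% of them were above 0. The rises were spread over every role: 7 of 11 proteases, 4 of 11 glycan hydrolases, 3 of 9 lipid and lumenal proteins and 3 of 6 membrane proteins. On 9 of the genes (Ctsc, Ctsh, Ctsz, Grn, Gusb, Hexa, Laptm5, Lgmn and Man2b1) every APP/PS1 PBS array lay above every WT array. The share of all probes with such a separation is not given, so this count describes the single genes only.

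**Figure D1:**
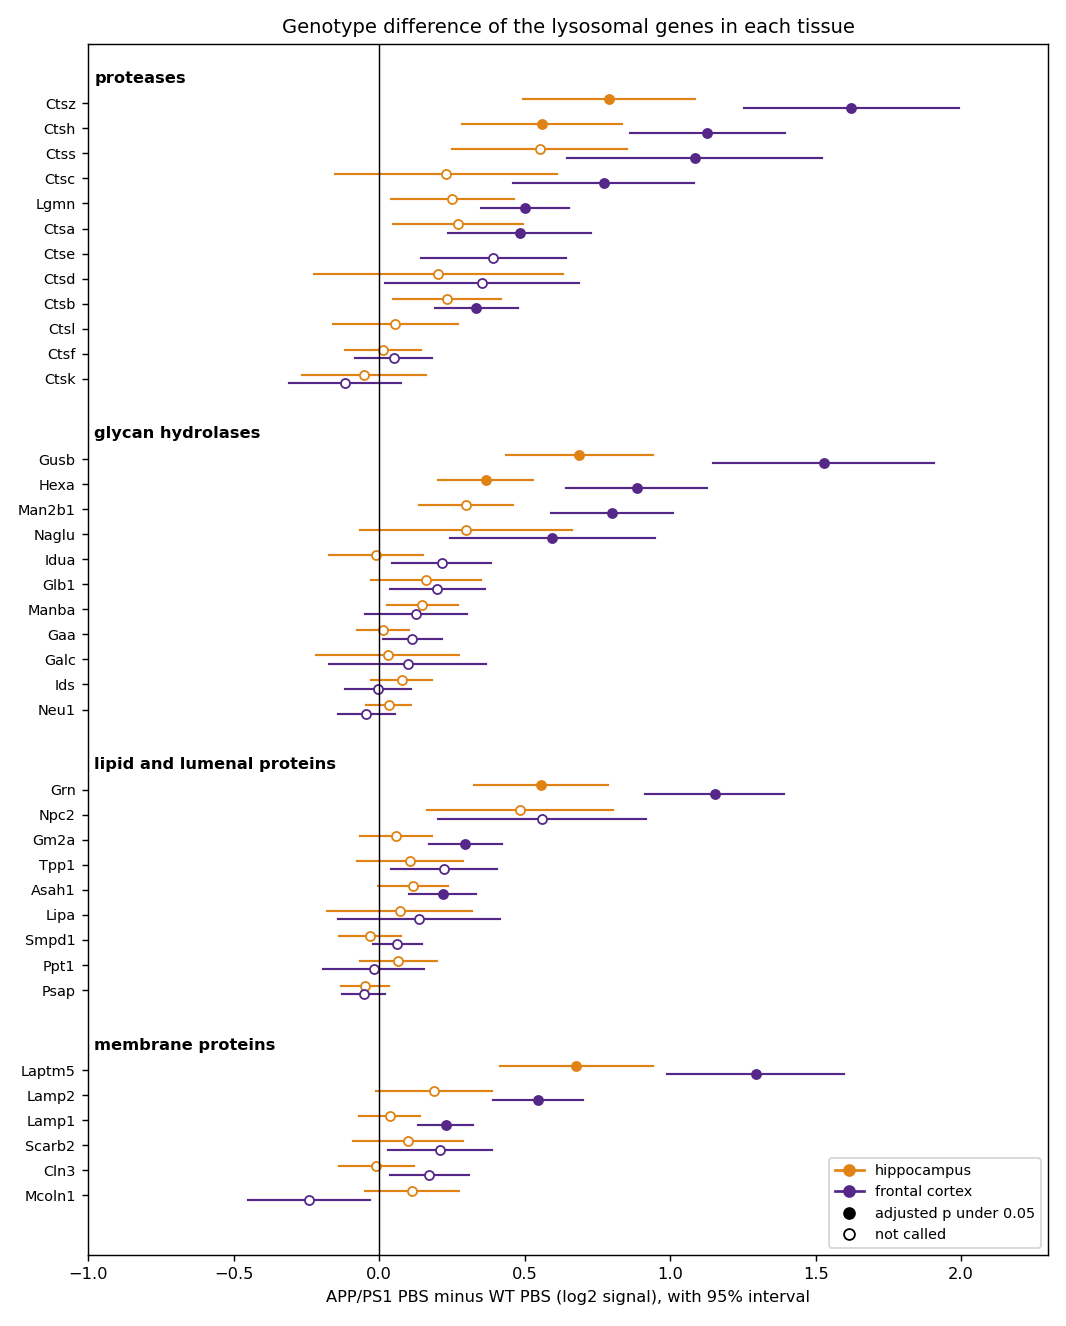
Difference between APP/PS1 PBS and WT PBS (log2 signal, horizontal axis) for each measured lysosomal gene, by role, in hippocampus (orange) and frontal cortex (purple), with 95% intervals from limma. Filled points passed an adjusted p of 0.05: 6 genes in the hippocampus and 17 in the cortex, all to the right of 0.

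Among the cathepsins, Ctsz, a cysteine carboxypeptidase (gene ID 64138, chromosome 2, 174427494 to 174439039 in GRCm38.p6), changed most. In the cortex of WT mice it ranged from 7.16 to 7.80 with a median of 7.44 (n = 11). In APP/PS1 PBS mice it ranged from 8.61 to 9.58 with a median of 9.05 (n = 8), so the groups did not overlap. The difference was 1.62 (SE 0.183, limma adjusted p = 8e-09), a 3.08-fold higher signal, and its other probe gave 1.55. Ctsh, an aminopeptidase of the same family, went from 8.59, 8.80 and 8.98 (lowest, median and highest WT array) to 9.67, 9.87 and 10.27, again without overlap, and differed by 1.13 (SE 0.132, limma adjusted p = 2.04e-08).

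Ctss, a cysteine endopeptidase of antigen-presenting cells, was dimmer and more variable. Its WT values ran from 5.13 over a median of 5.38 to 5.89 and its APP/PS1 PBS values from 5.41 over 6.59 to 7.44, so the lowest transgenic array lay inside the WT range. The difference was 1.08 (SE 0.218, limma adjusted p = 0.000627). Ctss was detected on all 40 cortical arrays. The lowest detected signals of the WT arrays averaged 5.11, so its lower WT values lay near background. Ctsc, which activates serine proteases by removing dipeptides, went from 7.72, 8.06 and 8.29 in WT to 8.31, 8.81 and 9.14 in APP/PS1 PBS, just clear of overlap. It differed by 0.77 (SE 0.155, limma adjusted p = 0.00061), and its other 2 probes were higher as well, by 0.59 and 0.76.

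The remaining proteases changed less or did not pass. Lgmn, the asparaginyl endopeptidase legumain that cuts cathepsins into their mature chains, differed by 0.50 (SE 0.0754), Ctsa, a carboxypeptidase that also protects Neu1 and Glb1 from degradation, by 0.48 (SE 0.122) and Ctsb, an abundant cysteine cathepsin, by 0.33 (SE 0.0707), with limma adjusted p of 4.52e-06, 0.0097 and 0.00133. For Ctsa only the brightest of 4 probes was called, and 2 of the 3 dim ones lay slightly below 0 (-0.03 each). The mean of its detected probes differed by 0.15 and was not called (limma adjusted p = 0.314). Ctsd, the main aspartic protease of lysosomes, gave 0.35 (95% interval 0.02 to 0.69, limma adjusted p = 0.293). Ctse, another aspartic protease, was not above background on any of 11 WT arrays and was above it on 3 of 8 APP/PS1 PBS arrays, so no fold is given (limma adjusted p = 0.0624). Ctsf and Ctsk, both cysteine proteases, gave 0.05 and -0.12 and were not called.

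The glycan hydrolases divided into a few with large rises and a majority near 0. Gusb, the beta-glucuronidase that trims glycosaminoglycans (gene ID 110006, chromosome 5, 129989011 to 130003049), had WT values of 8.54, 8.69 and 8.90 (lowest, median and highest) and APP/PS1 PBS values of 9.90, 10.25 and 10.59. The gap between the groups was wider than either group's range. The difference was 1.53 (SE 0.188, limma adjusted p = 6.08e-08), or 2.88-fold, and the other 2 probes gave 0.94 and 1.37. Hexa, the alpha subunit of the hexosaminidase that degrades GM2 ganglioside, went from 9.18, 9.26 and 9.42 to 9.92, 10.21 and 10.41. It differed by 0.88 (SE 0.121, limma adjusted p = 6.05e-07), with no overlap.

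Man2b1, the lysosomal alpha-mannosidase, ranged from 10.54 to 10.72 in WT cortex (median 10.60) and from 11.16 to 11.85 in APP/PS1 PBS cortex (median 11.37), a difference of 0.80 (SE 0.104, limma adjusted p = 2.29e-07). Naglu, which removes N-acetylglucosamine from heparan sulfate, was a weak call: its WT range of 5.87 to 6.66 (median 6.45) touched the transgenic range of 6.61 to 7.22 (median 6.92), with a difference of 0.59 (SE 0.175, limma adjusted p = 0.0377) that was no longer called when 1 of 10 arrays was left out (APP/PS1 PBS arrays 1, 2, 3, 6, 7 and 8 and WT arrays 6, 7, 9 and 11, each in turn). It was also not called with median centring or with no filter on dim probes (limma adjusted p = 0.0578 and 0.0666). The other 7 were not called: Idua 0.21, Glb1 0.20, Manba 0.13, Gaa 0.11, Galc 0.10, Ids -0.01 and Neu1 -0.04, enzymes that act on glycosaminoglycans, galactosides, mannosides, glycogen, galactosylceramide and sialic acids.

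Grn led the lipid and lumenal proteins. It encodes progranulin, a secreted protein that is delivered to lysosomes and cut there into granulins (gene ID 14824, chromosome 11, 102430507 to 102436809). Its WT cortical values were 9.95, 10.04 and 10.29 (lowest, median and highest) and its APP/PS1 PBS values 11.11, 11.18 and 11.42, a difference of 1.15 (SE 0.119, limma adjusted p = 9.16e-10). Gm2a, the activator that presents GM2 ganglioside to hexosaminidase A, went from 10.37, 10.47 and 10.72 to 10.69, 10.78 and 10.95 and differed by 0.30 (SE 0.0627, limma adjusted p = 0.00133). Asah1, acid ceramidase, went from 11.08, 11.19 and 11.34 to 11.16, 11.39 and 11.66 and differed by 0.22 (SE 0.0569, limma adjusted p = 0.0137), or 0.18 and not called without APP/PS1 PBS array 6. For Gm2a and Asah1 the groups overlapped, unlike those of Grn, and a dimmer Asah1 probe gave 0.09 and was not called. With median centring in place of quantile normalisation neither gene was called, with Gm2a at 0.25 and Asah1 at 0.17 (limma adjusted p = 0.0847 and 0.398).

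Npc2, the soluble cholesterol carrier of the lysosome, gave 0.56 (95% interval 0.20 to 0.92) without passing (limma adjusted p = 0.0657), and with slide as a block it was called at 0.48 (limma adjusted p = 0.0234). The other 5 of this role were also not called: Tpp1 0.22, Lipa 0.14, Smpd1 0.06, Ppt1 -0.02 and Psap -0.05. Psap, the precursor of the saposins that help hydrolases reach membrane lipids, had a narrow interval of -0.13 to 0.02.

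Of the membrane proteins, Laptm5, a lysosomal protein of haematopoietic cells (gene ID 16792, chromosome 4, 130912890 to 130936148), had WT values of 11.54, 11.73 and 11.79 and APP/PS1 PBS values of 12.79, 12.96 and 13.26. The groups lay far apart, with a difference of 1.29 (SE 0.151, limma adjusted p = 1.82e-08). Lamp2, a main glycoprotein of the lysosomal membrane with a role in autophagy, went from 10.02, 10.23 and 10.54 to 10.50, 10.76 and 11.02, overlapping at the edge, and differed by 0.54 (SE 0.077, limma adjusted p = 1.2e-06), with its other 3 probes between 0.43 and 0.58. Lamp1, its close relative, went from 11.73, 11.90 and 12.04 to 12.04, 12.10 and 12.25 and differed by 0.23 (SE 0.0474, limma adjusted p = 0.00101), but with median centring it gave 0.16 and was not called (limma adjusted p = 0.253).

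Scarb2, the sorting receptor of glucocerebrosidase, gave 0.21 and Cln3, a membrane protein lost in a juvenile storage disease, gave 0.17. Neither was called. Mcoln1, the calcium channel TRPML1, was the lowest of the set at -0.24 (95% interval -0.45 to -0.03), also without a call.

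The plot of single arrays for Ctsz, Gusb, Grn and Laptm5, the leading gene of each role, shows how far the groups stood apart in each tissue.

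**Figure D2:**
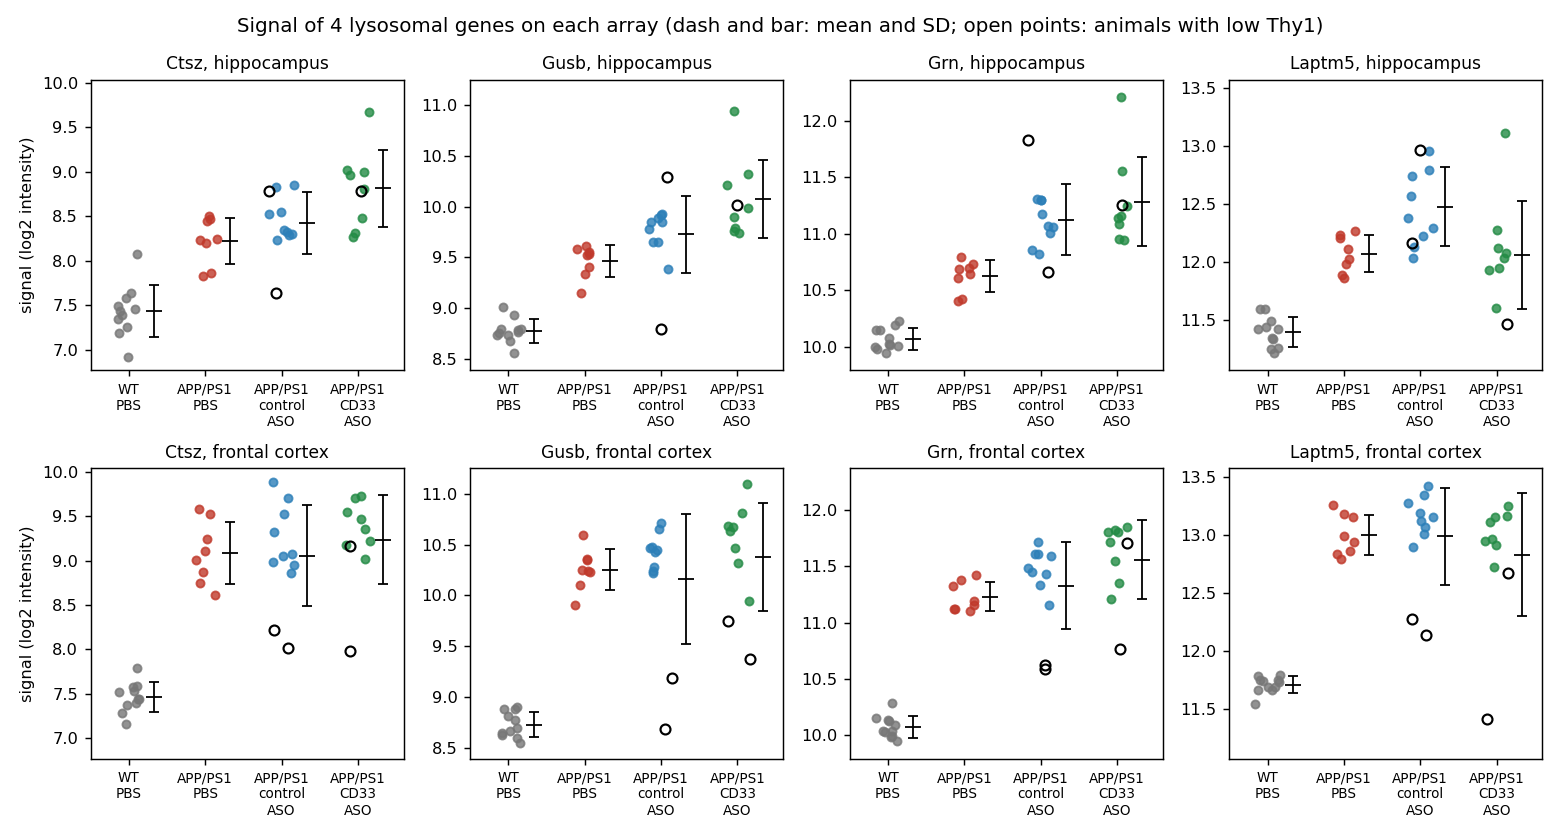
Log2 signal of Ctsz, Gusb, Grn and Laptm5 (vertical axis) on every array of the 4 groups in hippocampus (top) and frontal cortex (bottom), with the group mean and SD beside the points. Open points mark the animals labelled APP/PS1 with low Thy1, and in the cortex several of them lie below the other arrays of their group, such as Ctsz at 7.98 in the CD33 ASO group.

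The promoters of 36 of the 41 genes were in the RefSeq table (build GRCm38.p6, 250 bases before to 50 after each start), and 5 genes, Ctsb, Ctse, Ctsh, Asah1 and Npc1, were not matched. They were searched on both strands for the E-box CACGTG, its flanked forms, TCACGTGA and the longer CLEAR element bound by the lysosomal regulator TFEB, and GAGGAAGT, a form of the site of the myeloid factor PU.1. The flanked forms contain the E-box, so these counts overlap. An E-box was present for 12 of 36 genes (33.3%) against 8.09% of all 27025 genes with a promoter, TCACGTGA for 5 (13.9%) against 1.12%, the CLEAR element for 1 (2.78%) against 0.37% and GAGGAAGT for 4 (11.1%) against 3.69%. Among the genes higher in APP/PS1 cortex, 4 of the 14 with a promoter held an E-box and 3 held GAGGAAGT, and among those measured and not called 6 of 19 held an E-box and 0 held GAGGAAGT. In the 200 bases before the start alone, GAGGAAGT was present for 2 of the 36 genes (5.56%) against 2.39% of all genes, and for 1 of the 14 higher in APP/PS1 cortex. A match of letters is a description of these windows and not of binding.

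Promoters are printed for 2 genes with E-boxes, Cln3 with the CLEAR element and Lamp1 with 4 E-boxes, for the 3 genes higher in APP/PS1 cortex with GAGGAAGT, which reads ACTTCCTC on the printed strand, and for Ctsz, the gene with the largest difference, which held none of the 4. Capitals mark the matches, each sequence runs 5′ to 3′ on the strand of its gene, and Cln3 and Lamp1 are shown for the lysosomal motif while the others carry the comparison above.
Cln3 (chr7:126583187-126583486, minus strand): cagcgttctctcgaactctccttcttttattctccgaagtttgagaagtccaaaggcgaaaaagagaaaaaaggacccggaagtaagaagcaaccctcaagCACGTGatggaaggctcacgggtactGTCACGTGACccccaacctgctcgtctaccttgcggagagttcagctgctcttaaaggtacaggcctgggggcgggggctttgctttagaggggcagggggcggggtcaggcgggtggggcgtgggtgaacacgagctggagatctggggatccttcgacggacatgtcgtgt
Lamp1 (chr8:13158911-13159210, plus strand): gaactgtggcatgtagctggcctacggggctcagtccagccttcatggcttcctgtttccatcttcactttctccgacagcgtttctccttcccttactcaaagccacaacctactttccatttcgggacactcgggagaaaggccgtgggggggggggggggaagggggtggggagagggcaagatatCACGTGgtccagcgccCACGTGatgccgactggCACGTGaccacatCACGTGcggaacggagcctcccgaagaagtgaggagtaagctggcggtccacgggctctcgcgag
Ctsc (chr7:88277835-88278134, plus strand): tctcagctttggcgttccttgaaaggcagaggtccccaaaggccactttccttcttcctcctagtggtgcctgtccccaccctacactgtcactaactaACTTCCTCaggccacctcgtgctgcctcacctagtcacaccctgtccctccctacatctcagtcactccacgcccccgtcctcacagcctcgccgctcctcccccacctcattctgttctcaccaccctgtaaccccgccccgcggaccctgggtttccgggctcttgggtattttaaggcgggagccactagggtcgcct
Ctss (chr3:95526536-95526835, plus strand): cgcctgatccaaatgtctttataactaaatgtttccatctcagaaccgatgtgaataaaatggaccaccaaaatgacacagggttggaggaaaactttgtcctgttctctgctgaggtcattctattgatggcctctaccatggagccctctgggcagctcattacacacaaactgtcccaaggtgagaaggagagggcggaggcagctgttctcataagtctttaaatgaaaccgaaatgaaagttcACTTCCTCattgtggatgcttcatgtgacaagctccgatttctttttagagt
Gusb (chr5:130003000-130003299, minus strand): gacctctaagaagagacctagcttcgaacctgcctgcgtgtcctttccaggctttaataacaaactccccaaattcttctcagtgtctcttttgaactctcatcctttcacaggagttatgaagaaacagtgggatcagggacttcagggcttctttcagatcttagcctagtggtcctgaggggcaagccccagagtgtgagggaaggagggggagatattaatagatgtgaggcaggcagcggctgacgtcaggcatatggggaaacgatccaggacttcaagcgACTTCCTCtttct
Ctsz (chr2:174438990-174439289, minus strand): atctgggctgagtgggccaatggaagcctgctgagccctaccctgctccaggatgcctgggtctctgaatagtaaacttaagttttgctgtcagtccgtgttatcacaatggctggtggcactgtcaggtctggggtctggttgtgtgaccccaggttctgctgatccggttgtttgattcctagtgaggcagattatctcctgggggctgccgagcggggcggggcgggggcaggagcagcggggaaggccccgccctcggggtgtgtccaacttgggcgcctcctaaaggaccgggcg

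In the hippocampus fewer of these genes passed. There 6 of 37 were higher in APP/PS1 PBS than in WT PBS mice and 0 were lower, against 0.952% of all 14923 probes called and 0.898% called higher. The 6 were Ctsz, Ctsh, Gusb, Hexa, Grn and Laptm5, and all 6 were also among the 17 of the cortex. The median difference of the 37 was 0.12 and 32 were above 0, with a median of -0.01 over all probes, of which 45.4% were above 0. For Grn, Gusb and Laptm5 every APP/PS1 PBS array lay above every WT array, again without the share over all probes.

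Ctsz had hippocampal WT values of 6.92, 7.43 and 8.07 (lowest, median and highest) and APP/PS1 PBS values of 7.83, 8.24 and 8.50, a difference of 0.79 (SE 0.147, limma adjusted p = 0.00079) with an overlap made by 1 high WT array. Gusb went from 8.56, 8.77 and 9.02 to 9.15, 9.53 and 9.61 (0.69, SE 0.125, limma adjusted p = 0.000633). The dimmer probes of Gusb gave 0.35 and 0.53 and were not called (limma adjusted p = 0.186 and 0.0869). Laptm5 went from 11.22, 11.42 and 11.60 to 11.86, 12.07 and 12.27 (0.68, SE 0.13, limma adjusted p = 0.00136). Each of them also had the largest difference of its role in the cortex.

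Grn went from 9.94, 10.02 and 10.22 to 10.41, 10.67 and 10.80 in the hippocampus (0.56, SE 0.114, limma adjusted p = 0.00322). Ctsh went from 8.42, 8.78 and 9.14 to 8.98, 9.38 and 9.64 (0.56, SE 0.136, limma adjusted p = 0.0232) and lost its call when APP/PS1 PBS array 1, 5, 7 or 8 was left out. Hexa went from 9.17, 9.32 and 9.62 to 9.52, 9.71 and 9.95 (0.37, SE 0.0806, limma adjusted p = 0.00777), and with median centring it gave 0.31 and was not called (limma adjusted p = 0.106). Ctss (0.55) and Man2b1 (0.30) lay just outside the threshold, with limma adjusted p of 0.0586 and 0.0565. Man2b1 was called with slide as a block (0.34, limma adjusted p = 0.0234), and Ctss with median centring (0.58, limma adjusted p = 0.0407). The other 29 were not called, among them Npc2 at 0.48, Lamp2 at 0.19, Lamp1 at 0.04 and Ctsl, a cysteine endopeptidase above background on 0 of 11 WT and 2 of 8 APP/PS1 PBS arrays.

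Within single slides the genotype difference kept its sign for the called genes. These genes were called from the same arrays, so the shared sign is a description and not separate evidence. In the cortex all 17 were positive on 5 of 5 slides that held both groups, with Ctsz between 1.23 and 1.93 and Grn between 1.04 and 1.30. In the hippocampus the 6 were positive on 3 of 3 slides, with Gusb between 0.59 and 0.91.

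Markers of microglia and 1 astrocyte marker, Gfap, moved with these genes. Of 17 listed microglial genes 15 were measured, Itgam was not detected on 8 arrays of either tissue, and 14 of the 15 were higher in APP/PS1 PBS cortex and 11 in the hippocampus. Their mean level ran from 8.11 to 8.34 over WT cortical arrays and from 9.13 to 9.66 over APP/PS1 PBS arrays, and from 8.02 to 8.17 and 8.51 to 9.07 in the hippocampus. Of 13 listed genes of plaque-associated microglia 11 were measured. The mean level of the 11 ran from 6.67 to 6.92 over WT and from 8.81 to 9.32 over APP/PS1 PBS cortical arrays. In the hippocampus it ran from 6.90 to 7.19 and from 8.02 to 8.59. Of the 7 blood monocyte and granulocyte markers named on the array, S100a9, Chil3, Ngp and Retnlg were not detected on 8 arrays of either tissue, and neither was Cd163 of the 7 named border macrophage markers. Of 8 measured astrocyte markers 1 was called, Gfap, an intermediate filament protein, at 2.26 in the cortex and 1.05 in the hippocampus. The mean level of the 8 ran from 10.10 to 10.35 over WT and from 10.44 to 10.87 over APP/PS1 PBS cortical arrays, without overlap, and from 10.35 to 10.59 and 10.52 to 10.74 in the hippocampus. This mean includes Gfap and is not given without it, so it does not show a rise of the uncalled astrocyte markers. The part of these markers in the lysosomal differences was not tested, and in whole tissue more cells of a type cannot be told apart from more RNA per cell.

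The genotype difference was larger in the cortex than in the hippocampus for 29 of the 36 genes measured in both tissues, but the difference between the tissues was called for 0 of them (limma with animal as a block, 0.415% of 14214 probes called), with 15 at an unadjusted p under 0.05. The share of all probes at that unadjusted threshold is not given. Man2b1 came nearest to a call, with a cortical difference 0.50 above the hippocampal one (SE 0.13, limma adjusted p = 0.052), followed by Gusb at 0.84 (SE 0.225, limma adjusted p = 0.068). Without the 4 animals with low Thy1, which are in neither genotype group but enter the estimate of the spread, 7 genes were called at the same differences and 1.23% of probes were. They were Ctsh (0.57), Ctsz (0.83), Grn (0.60), Gusb (0.84), Hexa (0.52), Laptm5 (0.62) and Man2b1 (0.50), with adjusted p from 3.31e-05 to 0.0128.

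**Figure D3:**
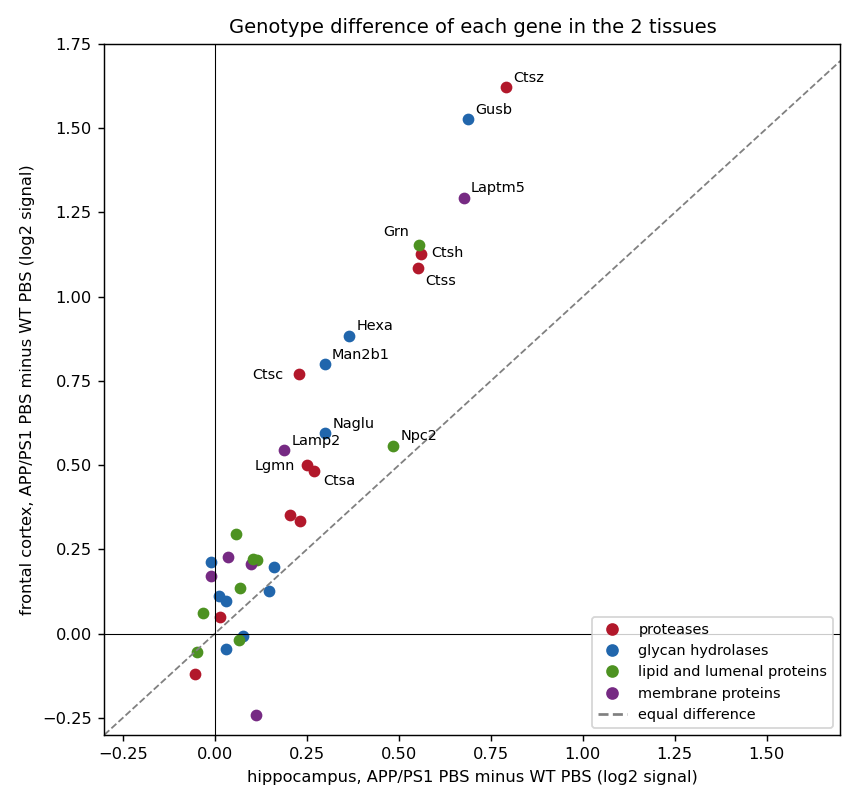
Genotype difference of each lysosomal gene in hippocampus (horizontal axis) against frontal cortex (vertical axis), both as log2 signal of APP/PS1 PBS minus WT PBS and coloured by role. Most points lie above the dashed line of equal difference, and Ctsz, Gusb, Laptm5 and Grn lie farthest from it.

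Between WT hippocampus and WT cortex 9 of the 36 genes were called (25%), against 38% of all probes, so the lysosomal genes differed no more often than the background. Ctsc (0.61), Gaa (0.36), Lamp2 (0.26) and Tpp1 (0.23) were higher in the hippocampus, and Ctsk (0.65), Laptm5 (0.31), Ids (0.26), Asah1 (0.20) and Ctsb (0.19) were higher in the cortex. Tissue and slide cannot be told apart here, since each tissue had its own 5 slides.

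The CD33 ASO was compared with the control ASO to ask what lowering Cd33 adds to an oligonucleotide infusion. In the hippocampus 0 of 37 lysosomal genes were called by limma, against 3.53% of all probes, with 9 at an unadjusted p under 0.05. In the cortex 0 were called against 0.322%, with 1 at an unadjusted p under 0.05. The shares of all probes at that unadjusted threshold are not given, so the unadjusted counts have no background beside them. The median difference was 0.02 in the hippocampus and 0.04 in the cortex. The 95% interval lay wholly within 0.5 either way for 29 of 37 genes in the hippocampus and for 35 in the cortex, so larger effects are outside the intervals of these genes but not of the others.

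Several hippocampal genes came close to the threshold. Ctsb had values of 12.24, 12.53 and 12.90 (lowest, median and highest) with control ASO and 12.58, 12.79 and 13.36 with CD33 ASO, a difference of 0.30 (95% interval 0.12 to 0.48, limma adjusted p = 0.052). Laptm5 differed in the opposite direction, from 12.04, 12.38 and 12.97 to 11.47, 12.04 and 13.11, by -0.41 (95% interval -0.67 to -0.16, limma adjusted p = 0.0532). Both pairs of groups overlapped, and for Laptm5 the control ASO range lay wholly within the CD33 ASO range. Ctsh differed by 0.42 (95% interval 0.15 to 0.68, limma adjusted p = 0.0618), Ctsk by 0.33 (95% interval 0.12 to 0.54, limma adjusted p = 0.0593), Gusb by 0.35 and Ctsz by 0.39. The dimmer probe of Ctsz did pass, at 0.58 (limma adjusted p = 0.013), while the brighter one did not (limma adjusted p = 0.116).

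Without the animals with low Thy1, Ctsh was called in this comparison (0.48, SE 0.118, limma adjusted p = 0.0279), against 1.48% of all probes. Array 4 of the hippocampal CD33 ASO group was the highest of its group for several of these genes, and without it Laptm5 was called at -0.55.

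Against PBS, the CD33 ASO group had 5 of 37 lysosomal genes higher in the hippocampus and 0 lower, against 4.96% of all probes called and 3.02% called higher. They were Ctsh (0.68, SE 0.142), Grn (0.66, SE 0.12), Gusb (0.61, SE 0.131), Ctsz (0.59, SE 0.153) and Hexa (0.51, SE 0.0843), with limma adjusted p of 0.00173, 0.000282, 0.00207, 0.0147 and 7.11e-05. For Ctsh the CD33 ASO arrays ran from 9.56 over 9.88 to 11.08 and the PBS arrays from 8.98 over 9.38 to 9.64, with little overlap. Grn ran from 10.95 over 11.16 to 12.21 with the CD33 ASO, above the highest PBS array at 10.80. Gusb ran from 9.74 over 9.99 to 10.94, above the highest PBS array at 9.61.

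Ctsz ran from 8.27 to 9.67 with the CD33 ASO, overlapping the PBS range at its lower end, and Hexa from 9.84 to 10.71 against 9.52 to 9.95 with PBS. The 5 genes were still called without array 4, with Ctsz at 0.48 and Ctsh at 0.54. They were positive on all 4 slides that held both groups, but they were called from the same arrays. This comparison and the genotype comparison share the APP/PS1 PBS arrays, so their lists are not independent of each other. Microglial markers were higher here too, 8 of 15, with array means from 8.90 to 9.96, while 6 of 7 measured oligodendrocyte and 2 of 2 erythroid markers were lower, and of 5 border macrophage markers 2 were higher and 1 was lower. The group mean of the plaque-associated microglial markers was 8.32 with PBS, 8.37 with control ASO and 8.74 with CD33 ASO. Their part in the result was not tested.

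The control ASO group had 4 of 37 lysosomal genes higher than PBS in the hippocampus and 0 lower, but 11.4% of all probes were called in this comparison and 5.73% were called higher, against 10.8% of the lysosomal genes, so the share called was near the background. The 4 were Grn (0.50, SE 0.114), Laptm5 (0.41, SE 0.13), Idua (0.35, SE 0.0799) and Hexa (0.29, SE 0.0806), with limma adjusted p of 0.00408, 0.0365, 0.00443 and 0.0183. Idua, the iduronidase of heparan and dermatan sulfate, had PBS values of 7.61, 7.68 and 7.86 and control ASO values of 7.74, 8.06 and 8.23, with a small overlap. With slide as a block only Hexa was called (0.38), while Grn gave 0.42, Laptm5 0.26 and Idua 0.16, with limma adjusted p of 0.153, 0.548 and 0.409. Laptm5 was also not called when 1 of 9 arrays was left out (PBS arrays 3, 4, 5 and 7 and control ASO arrays 2, 4, 8, 10 and 11, each in turn). Just 2 slides held both groups. Cell type markers moved here as well: 6 of 15 microglial and 2 of 5 border macrophage markers were higher, and 3 of 7 oligodendrocyte and 2 of 2 erythroid markers were lower. From PBS to control ASO the group means went from 8.74 to 9.08 for microglia, from 5.65 to 6.05 for border macrophages, from 11.65 to 11.42 for oligodendrocytes and from 10.65 to 9.64 for the erythroid genes. Their part in the result was not tested.

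**Figure D4:**
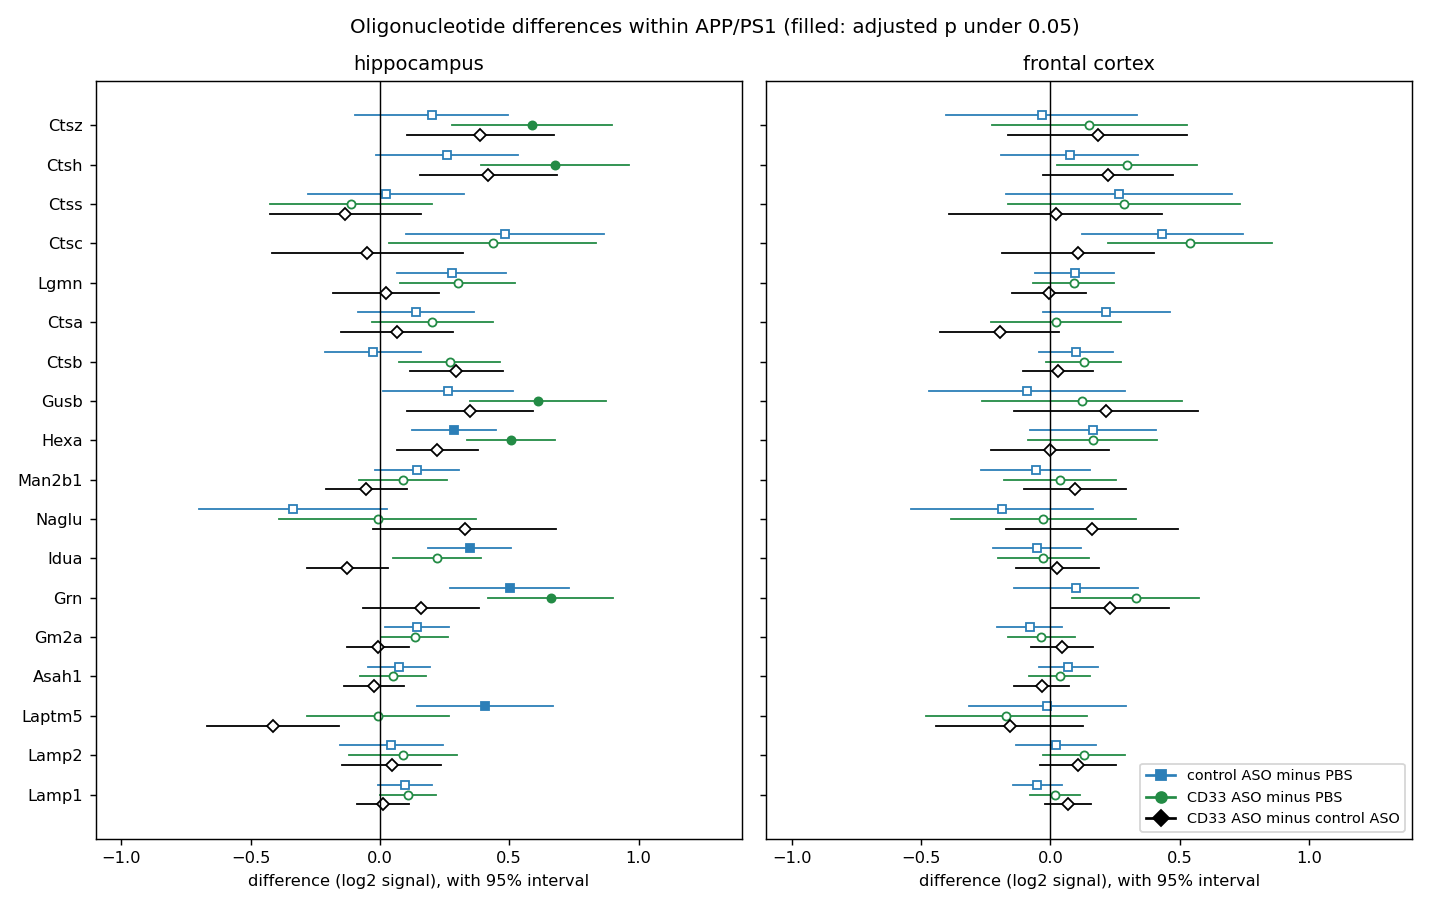
Differences in log2 signal (horizontal axis) between the treatment groups of APP/PS1 mice for the 18 lysosomal genes called in any comparison, in hippocampus (left) and frontal cortex (right), with 95% intervals. Filled points passed an adjusted p of 0.05: 5 genes for CD33 ASO minus PBS and 4 for control ASO minus PBS, all in the hippocampus, and 0 for CD33 ASO minus control ASO.

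In the cortex 0 of 37 genes were called by limma for the control ASO compared with PBS (0.926% of all probes) and 0 for the CD33 ASO (1.49% of all probes), with 1 and 5 at an unadjusted p under 0.05. These percentages are of called probes, and shares at the unadjusted threshold are not given. Ctsc had the largest differences, 0.43 (95% interval 0.12 to 0.74) and 0.54 (95% interval 0.22 to 0.86), with limma adjusted p of 0.221 and 0.0698. The CD33 ASO range of Ctsc, 8.42 to 10.63 around a median of 9.41, included 1 array far above the others, from an animal with low Thy1.

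The animals with low Thy1 bear on these cortical values. Of the 18 lysosomal genes called in any comparison, 16 had the lowest control ASO array of the cortex among the 2 low-Thy1 arrays out of 11, and 15 had the lowest CD33 ASO array among 2 out of 10. In the hippocampus the counts were 14 of 18 for control ASO and 4 of 18 for CD33 ASO. The low-Thy1 arrays did not all lie low. Among the hippocampal control ASO arrays, array 1 was the lowest for Ctsb at 12.24, while array 10 was the highest at 12.90. Array 10 was also the highest for Laptm5, at 12.97. Ctsz was at 8.01 and 8.22 on the 2 cortical control ASO arrays and at 7.98 and 9.17 on the 2 CD33 ASO arrays. Without these animals 4 genes were called for the CD33 ASO against PBS in the cortex, Ctsc (0.49), Grn (0.41), Ctsh (0.38) and Hexa (0.33), against 2.19% of all probes. For the control ASO, Ctsc (0.53) and Hexa (0.30) were called, against 0.974%. Both animals of the CD33 ASO group were also collected on another day, so Thy1 level and day cannot be told apart there.

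The ASO effects did not separate between the tissues: 0 genes were called by limma for the difference between cortex and hippocampus in the comparison of the ASOs with each other (0.00704% of probes), of the control ASO with PBS (0.253%) or of the CD33 ASO with PBS (0.0563%), with 1, 6 and 4 at an unadjusted p under 0.05. Here too the percentages are of called probes only. Idua came nearest to a call, with a control ASO effect 0.40 lower in the cortex (95% interval of the difference -0.62 to -0.18, limma adjusted p = 0.0776).

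Other lysosomal genes, taken from lists that do not overlap with the 41, were examined for genotype in the cortex, and whether they were called at another rate than the 41 was not tested. Of 16 measured further hydrolases 4 were higher: Rnaset2b, a ribonuclease, by 0.67, Dnase2a, the acid deoxyribonuclease, by 0.65, Dpp7, a dipeptidyl peptidase, by 0.32 and Pla2g15, a phospholipase, by 0.25. Of 17 further membrane proteins 3 were higher: Slc11a1, the phagosomal metal transporter NRAMP1, by 1.42, Cd63, a tetraspanin of late endosomes, by 0.52 and Slc29a3, a nucleoside transporter, by 0.52. Of 13 genes of sorting and regulation only Nagpa, which uncovers the mannose 6-phosphate tag, was called, at 0.38. None of these 4 lists had a gene called lower. Over all probes tested in the cortex, 4.18% were called for genotype and 3.66% were called higher. A list with 1 call of 13 genes is too small to set against that share.

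The cathepsin inhibitors held the largest difference. Cst7, cystatin F, which restrains Ctsc and other cathepsins, was above background on 0 of 11 WT cortical arrays and on 8 of 8 APP/PS1 PBS arrays, where it ran from 8.70 over 9.41 to 9.71. Against the lowest detected signals of the WT arrays its level was at least 17.9-fold higher in the cortex and at least 5.46-fold higher in the hippocampus (limma adjusted p = 9.16e-10 and 1.77e-11). Cst3, cystatin C, was not called in either tissue. In the hippocampus Slc11a1 (0.65) was the only other gene of these lists that was called for genotype.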

How the data were processed

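Total RNA of hippocampus and frontal cortex was measured on Illumina MouseRef-8 bead arrays, 79 arrays from 40 animals, 39 of them with both tissues. The deposited table holds a signal intensity and a detection p-value for each probe and array, per the file headers. Intensities below 0 made up 21.8 to 26.3% of probes, so background had been subtracted in the deposited values. BeadStudio, GenomeStudio and Partek are named per the submitters' processing notes, and a second table of log2 values deposited by the authors for 18960 probes served as an alternative.

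Intensities were corrected with neqc (limma 3.58.1, R 4.3.3, offset 16) using the deposited detection p-values, quantile-normalised over all arrays and put on the log2 scale. Probes detected at p under 0.05 on 8 or more arrays of a tissue were kept. A fit of the 4 groups with lmFit and eBayes (trend) was made in each tissue, Benjamini-Hochberg adjustment ran over all probes tested, and a call is an adjusted p under 0.05. Intervals are 95%. A gene is represented by its brightest detected probe. Of the probes, 17800 had 1 gene symbol and 7897 had none. Differences between tissues were fitted over 14214 probes with animal as a block (consensus correlation 0.0854). In simulated data with 200 changed probes, all changes of 1 were recovered, as were 88% (hippocampus) and 85% (cortex) of changes of 0.5, in the genotype comparison. False calls made up 7.84% of the calls in the hippocampus and 2.63% in the cortex. The number of arrays limits the precision. Figures and promoter searches used Python 3.11.15 and matplotlib 3.10.9.

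The members and gene lists were chosen with earlier results of these data known. Every measured member is named, and values are given in full for the 4 of each role with the largest change among those called in any comparison. From the other lysosomal lists the called genes with the largest genotype change are named, up to 4 a list. Same-numbered arrays of different groups had a median correlation of 0.05 in the hippocampus and 0.06 in the cortex. For arrays of other numbers it was -0.01 and -0.02. A correlation over 0.1 was found for 22 of 53 same-numbered pairs in the hippocampus and 22 of 55 in the cortex. This does not settle whether the numbers pair animals. Alternatives covered background correction, scaling, detection, probe choice, slide and replicate blocks, array weights and single arrays left out. The settings without animals with low Thy1 or with another day of collection were added after seeing the data.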

Additional observations from a re-analysis of the deposited data

Results flagged for a closer look

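For the 18 lysosomal genes called in any comparison, 72 groups of 8 to 10 arrays were examined, and in 14 of them the highest or lowest array stood apart from its nearest neighbour by more than Dixon's 95% critical value. Chance alone would flag about 1 in 20 groups, and genes on one array are not independent. Groups of 11 arrays were not examined.

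In the hippocampus, array 4 of the CD33 ASO group was the highest of its group for 7 genes: Ctsb at 13.36, Ctsh at 11.08, Grn at 12.21, Gusb at 10.94, Lamp1 at 12.32, Laptm5 at 13.11 and Lgmn at 12.24. The next array was at 10.02 for Ctsh and at 11.59 for Lgmn. Array 2 of the APP/PS1 PBS group was the lowest for Man2b1, at 10.69.

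In the cortex, array 9 of the CD33 ASO group was the lowest for Asah1 at 11.00, Ctsz at 7.98, Laptm5 at 11.41 and Man2b1 at 10.76, and array 10 was the lowest for Ctsa at 7.62 and the highest for Ctsc at 10.63. Both came from animals labelled APP/PS1 with low Thy1, which held 6 of the 14. The part of Thy1 level in these values was not tested.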

How the results depend on the processing

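No lysosomal gene changed sign with a call under any setting run. Of the alternatives for single genes, 1612 planned ones kept the call, 97 gained one and 37 lost one, and of those added later 63 kept it, 14 gained one and 1 lost it. Over settings other than leaving out an array, the genotype count ran from 13 to 19 genes in the cortex and from 6 to 8 in the hippocampus, the hippocampal CD33 ASO against PBS count from 5 to 6, and the WT tissue count from 6 to 9. The hippocampal CD33 ASO against control ASO count of 0 became 1 with median centring, 2 with detection at p under 0.01, 1 with the replicate block (Ctsb at 0.36), 2 with array weights, 1 with the mean of a gene's probes, 1 without the animals with low Thy1 and 1 without those collected on another day. The hippocampal control ASO against PBS count of 4 became 12 with median centring, 9 with array weights and 1 with slide as a block. With median centring the median difference of all probes there was 0.06, against 0.01 in the main fit. Shares of all probes called under the settings of this section are not given here, so its counts have no background beside them. In the cortex, without the animals with low Thy1, 2 genes were called for control ASO and 4 for CD33 ASO against PBS, and the latter was 1 without those collected on another day. The count of genes whose genotype difference differed between tissues became 7 without the animals with low Thy1. The causes were not tested. The replicate block moved no other count by over 1.5 times, but with it Npc2 was called for genotype in the cortex (0.63), and for the hippocampal control ASO against PBS Naglu was called lower (-0.42) and Laptm5 was not called (0.36). Leaving out single arrays gave 15 to 19 genes for genotype in the cortex and 5 to 8 in the hippocampus. For the hippocampal CD33 ASO it gave 5 to 6 against PBS and 0 to 3 against control ASO, and for control ASO against PBS 3 to 7. In the cortex it gave 0 to 2 for CD33 ASO against PBS, and 0 to 0 for each of the other ASO comparisons. Ctsd, Ctse, Ctsl and Galc, and Ctss on some WT cortical arrays, lay near background, where differences are least certain.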
